A study of Mus musculus with 2 samples.

Results

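Lysosomal genes are described here in kidney tissue of a female C57BL/6J mouse, an adult aged 10 weeks. The set held 47 genes that encode hydrolases of the lysosome, proteins of its membrane, and the transcription factors TFEB and TFE3. They were chosen by gene symbol from a fixed list. No level entered that rule, though earlier results of these data were known when the members were chosen. All 47 were found among 43346 annotated gene rows. C57BL/6J is a common inbred laboratory strain, and the labels name no allele, transgene, treatment or other tissue. Polyadenylated RNA of 1 tissue sample was sequenced in 2 libraries, which the labels call technical replicates 2 and 1 of 1 biological replicate, and which are called library 2 and library 1 here. Both libraries form 1 group, so each spread between them is technical, and no difference between animals or conditions was measured. In RNA of a whole organ, fewer cells of a type and less RNA per cell cannot be told apart.

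The lysosome is the acidic compartment in which cells break down proteins, glycans, lipids and nucleic acids taken up from outside or delivered by autophagy. Most of its soluble enzymes receive a mannose 6-phosphate tag in the Golgi, which carries them to the lysosome, while its membrane proteins shield the cell, export the products of breakdown and conduct ions. In the kidney the proximal tubule takes up filtered proteins by endocytosis and degrades them in lysosomes. TFEB and TFE3 bind E-box sites near the starts of lysosomal genes and raise their transcription together.

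Short promoter stretches of 6 genes show these E-box letters, which are the sequence feature that part of the set shared. They came from RefSeq windows on build GRCm38.p6 that run from 250 bases before the annotated start of a gene to 50 bases after it, and such a window was given for 40 of the 47 genes. The 6-letter E-box CACGTG and its 8-letter form TCACGTGA were searched. Each reads the same on both strands, and the 8-letter form holds the 6-letter one. Lamp1, at chr8:13159076-13159160 on the plus strand, is shown because its window held the most matches, and the other 5 because theirs held the 8-letter form. They are Ctsd at chr7:142387895-142387950 on the minus strand, Ctsa at chr2:164833736-164833772 on the plus strand and Mcoln1 at chr8:3500424-3500504 on the plus strand. Cln3 lies at chr7:126583327-126583409 on the minus strand and Gla at chrX:134601169-134601255 on the minus strand. All stretches lie before the start and are written 5′ to 3′ on the strand of the gene, and capitals mark the 8-letter form where it is whole and the 6-letter E-box elsewhere.
Lamp1: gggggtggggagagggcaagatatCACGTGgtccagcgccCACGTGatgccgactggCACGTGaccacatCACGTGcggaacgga
Ctsd: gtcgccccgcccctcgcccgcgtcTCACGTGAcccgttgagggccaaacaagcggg
Ctsa: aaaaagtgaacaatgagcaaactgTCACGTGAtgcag
Mcoln1: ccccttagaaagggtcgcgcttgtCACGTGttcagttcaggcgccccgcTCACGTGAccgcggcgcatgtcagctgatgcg
Cln3: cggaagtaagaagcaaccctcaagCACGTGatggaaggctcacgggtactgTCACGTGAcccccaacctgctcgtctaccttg
Gla: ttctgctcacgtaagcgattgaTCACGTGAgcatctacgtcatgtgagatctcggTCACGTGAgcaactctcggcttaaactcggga

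The 6-letter E-box was present in the windows of 14 of the 40 genes (35%), against 8.09% of 27025 genes with a window. The 8-letter form was present in 5 of 40 (12.5%), against 1.12% of all genes. Among 26 other lysosomal genes with a window, 3 held the 6-letter E-box and the same number held the 8-letter form (11.5% each). The windows of the set had a median GC content of 56.7%, and all 32851 windows had one of 52.7%. Of 22 matches in the set, 14 lay within 100 bases before the start. Lamp1 alone held 4, beginning 61, 45, 28 and 15 bases before its start. Genes with the E-box had a median level of 46.1 TPM in library 2 against 3.17 TPM in library 1, and the 26 genes without it had 37.8 TPM in library 2 against 7.97 TPM in library 1. TPM is a share of each library corrected for transcript length, scaled to a fixed total. A match describes these letters only and is no measure of binding.

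**Figure D1:**
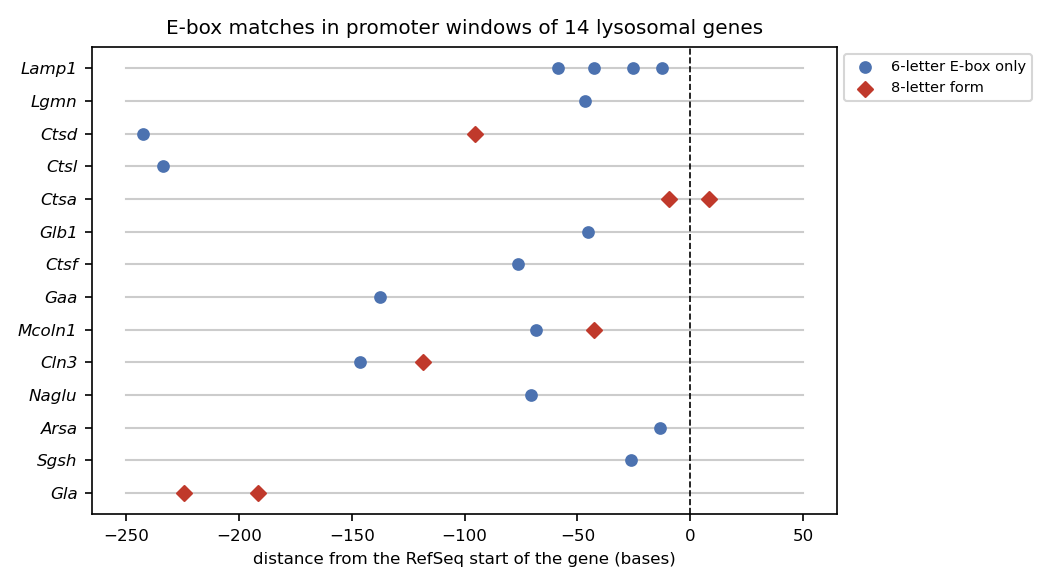
Position of each E-box match in the promoter windows of 14 lysosomal genes, in bases from the RefSeq start (dashed line), with genes ordered by their TPM in library 2. Circles mark the 6-letter form alone and diamonds the 8-letter form. Most matches lie in the last 100 bases before the start, while all matches of Cln3, Gaa, Ctsl and Gla and 1 of Ctsd lie farther upstream. A further match of Ctsa, also of the 8-letter form, begins at position 6, after the start.

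Expected counts, which estimate how many reads came from a gene, summed to 20720537 in library 2 and 28263730 in library 1. Mitochondrial genes and 10 nuclear copies of them made up 36.5% of all TPM in library 2 against 74.5% in library 1. The tissue label was checked on 10 proximal tubule genes, all of which stood at 1 TPM or more in both libraries. Kap, an androgen-regulated gene of the proximal tubule, had 23906 TPM in library 2 against 25669 TPM in library 1.

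All 47 lysosomal genes were detected. At a threshold of 1 TPM, 38 genes passed in both libraries and 9 passed in library 2 alone, namely Ctsk, Ctse, Gaa, Naglu, Sgsh, Arsa, Galns, Cln3 and Tfeb. The median level was 41.38 TPM in library 2 against 6.39 TPM in library 1, against 9.19 TPM in library 2 against 2.12 TPM in library 1 over the 15553 genes with at least 10 counts. Together the 47 genes came to 0.871% of TPM in library 2 against 0.174% in library 1. Without the mitochondrial genes and their copies these shares were 1.37% in library 2 and 0.684% in library 1. Levels above 100 TPM were reached by 13 genes in library 2 and by 4 in library 1.

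The orders of abundance in the libraries overlapped in part. The 10 most abundant genes of each library had 6 in common, Napsa, Lamp1, Lamp2, Lgmn, Ctsl and Ctsh. Psap, Ctsd, Neu1 and Ctsb completed the list in library 2, and Asah1, Lipa, Ppt1 and Tpp1 in library 1. Across the 47 genes, log2(TPM + 1) in library 2 and in library 1 had a Pearson r of 0.751 and a Spearman rho of 0.748, a description over genes that share a sample and are not independent. As deposited, 43 genes had more TPM in library 2 and 4 (Ctso, Ids, Asah1, Lamp2) in library 1. With TPM rescaled without the mitochondrial genes and copies, 32 were higher in library 2 and 15 in library 1.

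**Figure D2:**
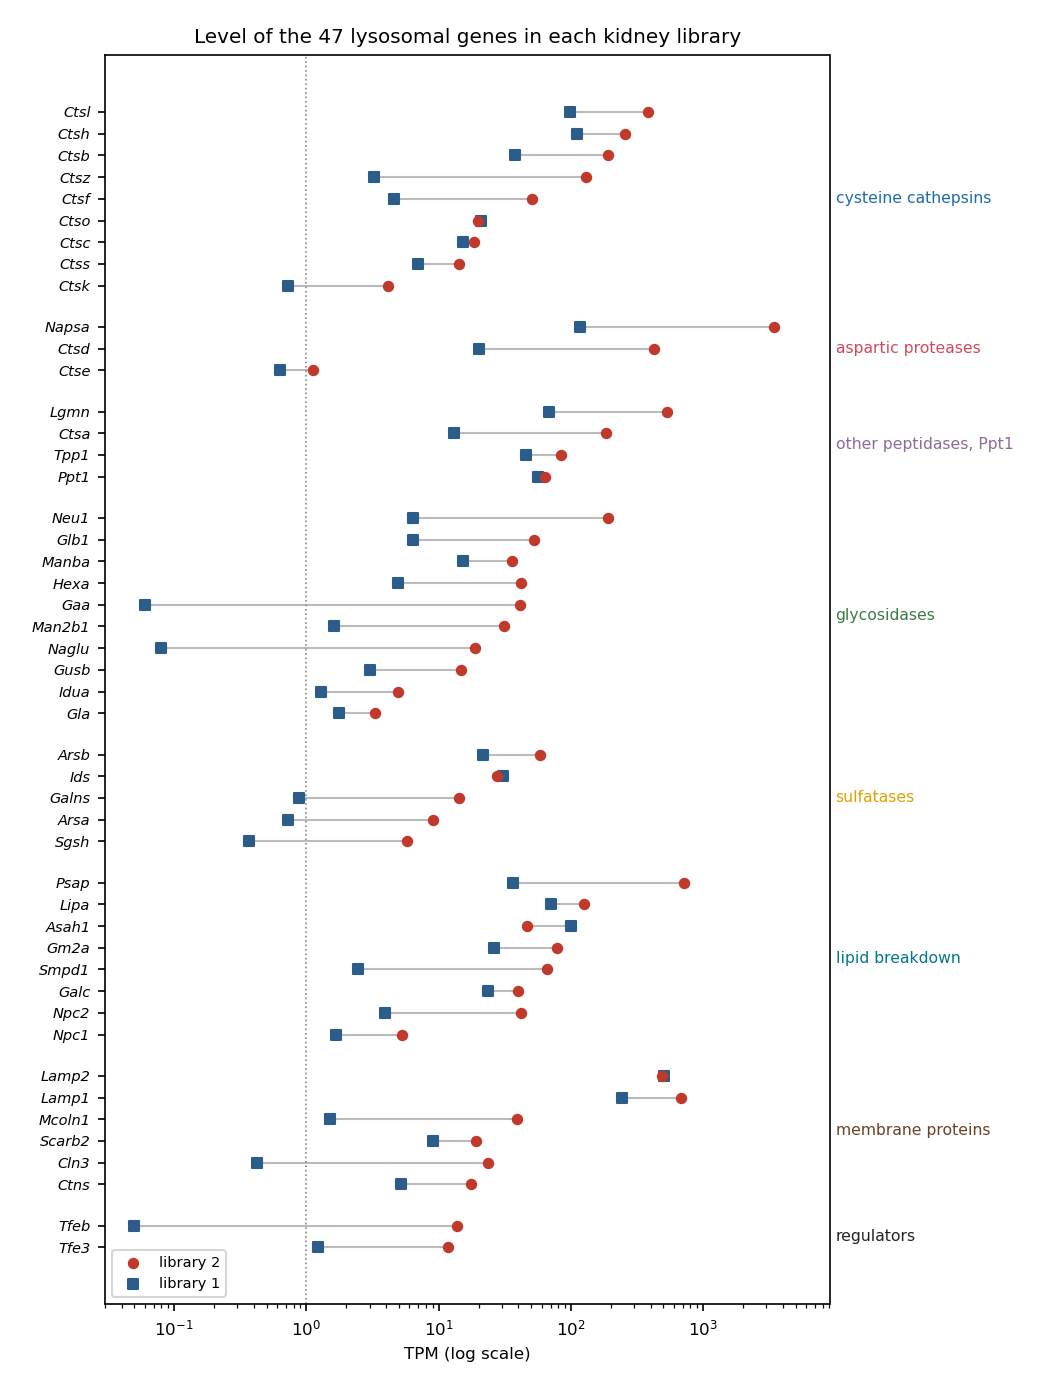
TPM of each of the 47 lysosomal genes on a log axis, grouped by role, with circles for library 2 and squares for library 1. The dotted line marks 1 TPM. Napsa stands at 3401 TPM in library 2 against 117 TPM in library 1, while Lamp2 has nearly the same value in both.

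To compare the libraries gene by gene, expected counts were scaled by TMM and compared by an exact two-sided binomial test over all 15553 genes with at least 10 counts. Calls needed an adjusted p (Benjamini-Hochberg) under 0.05 together with at least a 2-fold ratio. The test sets library 2 against library 1 and counts reads only, so its p-values have no replicate check. All 47 genes passed the filter. Of them 30 were called, against 60.5% of all genes tested. Higher in library 2 were 24, against 35.5% of all genes, and higher in library 1 were 6, against 24.9% of all genes. Scaled on total counts instead, 32 were called higher in library 2, against 49.2% of all genes, and 0 in library 1, against 4.55% of all genes. With that scaling the median log2 ratio of all genes moved to 1.03, against 0.12 with TMM. The median log2 ratio (library 2 over library 1) of the 47 genes was 1.12 with TMM. At an adjusted p under 0.05 alone, 43 of the 47 passed, and 83.5% of all genes did.

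The ratios of the lysosomal genes followed the GC content of their transcripts, as those of all genes did. Over 45 lysosomal genes with a GC value from a length-matched transcript, the log2 ratio and GC content had a Pearson r of 0.891 and a Spearman rho of 0.913. The same values over 11508 genes with at least 100 counts were 0.84 and 0.915. These are descriptions across genes within the same pair of libraries. Among 7 lysosomal genes under 45% GC, 6 were called higher in library 1 and the median log2 ratio was -1.46, against -1.47 for all genes of that class. The exception was Ctsl. All 16 genes at 55% GC or more were called higher in library 2, with a median of 3.29 against 3.78 for all genes of the class. Between these classes, 11 genes from 45 to 50% GC had a median of -0.33, and 11 genes from 50 to 55% GC had a median of 1.12. Over all genes tested, whatever their GC content, 35.5% were called higher in library 2 and 24.9% in library 1. The share of all genes called within each class was not counted, so the counts of 6 and 16 mark no trait of the set.

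**Figure D3:**
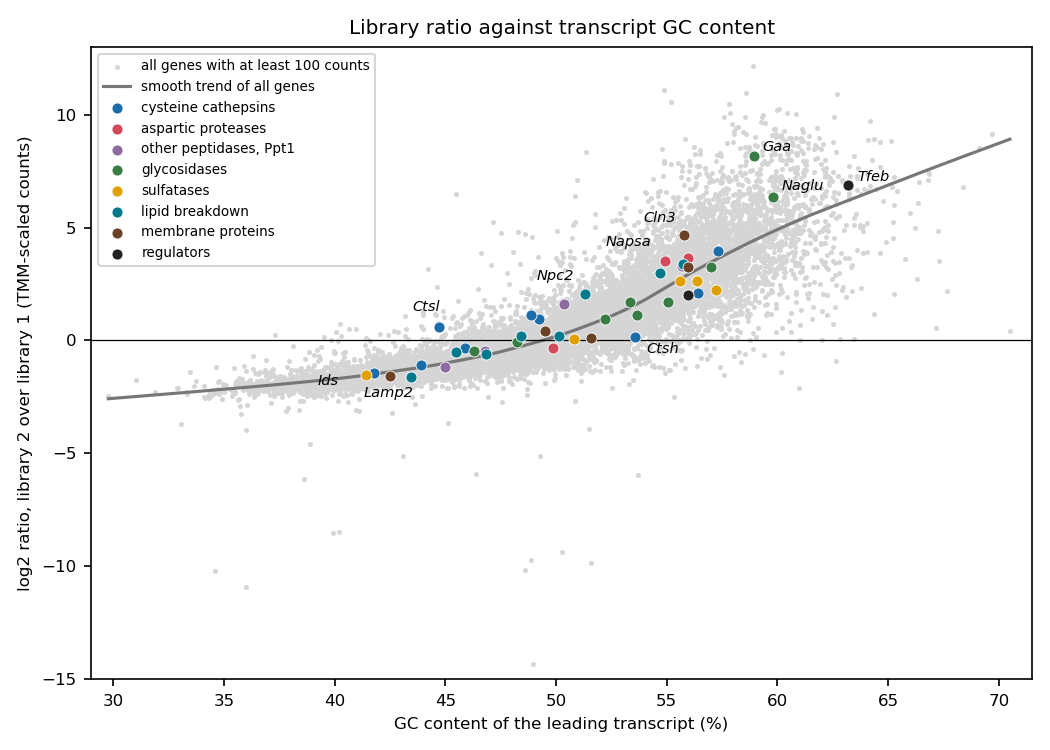
Log2 ratio of TMM-scaled counts, library 2 over library 1, against the GC content of the leading transcript. Grey dots are all 11508 genes with at least 100 counts, the line is their smooth trend, and coloured points are lysosomal genes by role. Gaa lies far above the trend, Ctsh, placed by its transcript Ctsh-204, below it, and Lamp2 and Ids close to it.

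A smooth trend on GC content was then removed from the ratios of all genes with at least 100 counts, which left 44 lysosomal genes, since Man2b1 and Scarb2 had no transcript whose length matched the reference and Ctse had fewer counts. With the trend removed, 9 were called higher in library 2, against 12.8% of 11508 genes, and 3 higher in library 1, against 10.6%. The 9 were Ctsl, Ctsb, Ctsk, Napsa, Lgmn, Gaa, Naglu, Npc2 and Cln3, and the 3 were Ctsh, Ctsf and Arsa. The median log2 ratio of these lysosomal genes was 0.25 after removal, and their ratios no longer followed GC content (r = 0.107, rho = 0.042, n = 44). Of the 30 genes called before, 7 kept their call and direction, Ctsf and Arsa turned to a call in the other direction, 20 were no longer called and Man2b1 was not tested. Ctsl, Ctsb and Ctsh were called after removal only. What set the relation to GC content was not tested.

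**Figure D4:**
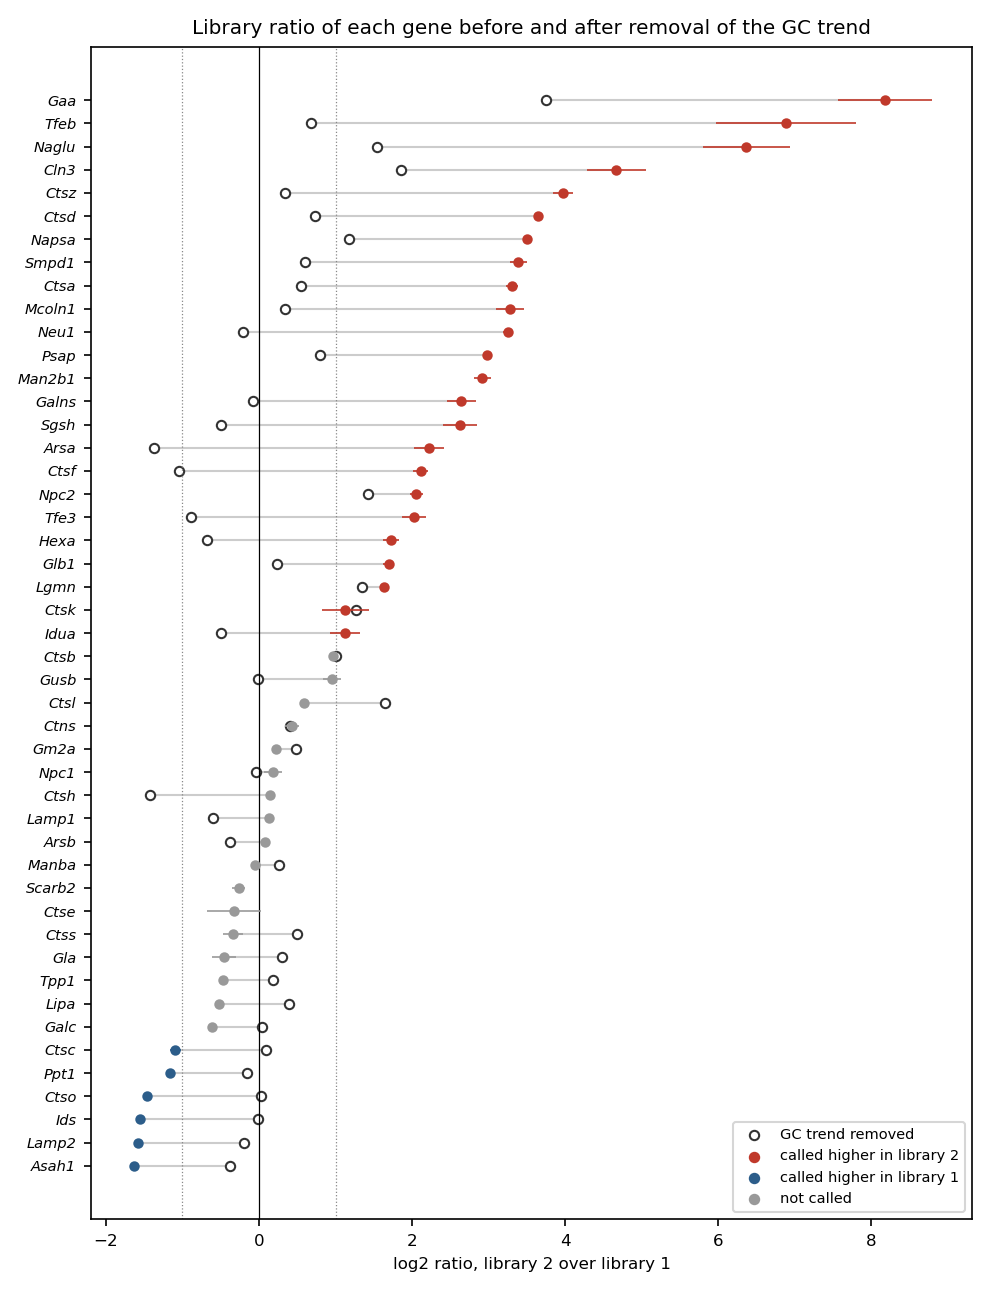
Log2 ratio of each lysosomal gene, library 2 over library 1, before (filled points, bars show the standard error from counting) and after (open points) removal of the GC trend. Dotted lines mark a 2-fold ratio. Most large ratios shrink, and Gaa keeps the largest value with 3.75 after removal.

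Cysteine cathepsins cleave proteins inside the lysosome. Of the 9, 3 were called higher in library 2 (35.5% of all genes), with 2 higher in library 1 (24.9%), and their median log2 ratio was 0.59. With the GC trend removed the counts were again 3 (12.8% of all genes) and 2 (10.6%). Ctsk was called in the same direction both times and Ctsf in opposite directions. Ctsl, which encodes the endopeptidase cathepsin L, had 382 TPM in library 2 against 98.6 TPM in library 1. Ctsh, an aminopeptidase, had 257 TPM in library 2 against 111 TPM in library 1. Ctsb, an endopeptidase that also trims dipeptides from protein ends, had 189 TPM in library 2 against 37.6 TPM in library 1. These were the 3 most abundant genes of the group in both libraries. None of the 3 was called on TMM-scaled counts, with log2 ratios of 0.59 for Ctsl, 0.15 for Ctsh and 0.97 for Ctsb. After removal of the GC trend Ctsl stood at 1.65 and Ctsb at 1.01, higher in library 2, and Ctsh at -1.42, higher in library 1. The GC content used for Ctsh, 53.6%, was that of Ctsh-204, a transcript of 631 bases. Ctsh-202, which led in library 2, had 49.7% GC, and Ctsh-201 had 51.2%. The value of Ctsh without the trend, and its call, depend on this choice, and no other transcript was tested.

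Ctsz, a carboxypeptidase, stood at 130 TPM in library 2 against 3.22 TPM in library 1, with a log2 ratio of 3.97 ± 0.13 (SE from counting) that fell to 0.34 without the GC trend. Cathepsin F, encoded by Ctsf, had 50.8 TPM in library 2 against 4.56 TPM in library 1. Its log2 ratio was 2.11 on TMM-scaled counts and -1.05 without the GC trend, so its direction depended on that step. Ctso, a less studied cysteine cathepsin, had 19.7 TPM in library 2 against 20.9 TPM in library 1, and its counts of 1036 in library 2 and 2078 in library 1 gave a log2 ratio of -1.46. Ctsc, the dipeptidyl peptidase that activates granule proteases of leukocytes, had 18.6 TPM in library 2 against 15.1 TPM in library 1 and a log2 ratio of -1.09. For Ctso and Ctsc the values without the GC trend were 0.03 and 0.10, neither of them called.

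Ctss, which processes the invariant chain in antigen-presenting cells, had 14.1 TPM in library 2 against 6.96 TPM in library 1, and its log2 ratio of -0.34 was under the 2-fold limit. Ctsk, the collagen-degrading enzyme of osteoclasts, had 4.14 TPM in library 2 against 0.73 TPM in library 1. It rested on 88 counts in library 2 and 29 in library 1, a scaled ratio of 2.21 (95% exact interval 1.44 to 3.49, counting error only). Both were thus far below the leading cathepsins in both libraries. Leukocyte markers were also present: 14 genes summed to 258 TPM in library 2 against 15.6 TPM in library 1, with Cd74 at 142 TPM in library 2 against 1.95 TPM in library 1. Of the 12 leukocyte markers tested, 7 were called higher in library 2 (35.5% of all genes), with 1 higher in library 1 (24.9%). Without the GC trend 4 of 9 were higher in library 2 (12.8% of all genes) and 0 in library 1 (10.6%). None of the 14 was at 0 counts in both libraries, and the part of leukocytes in the levels of Ctss, Ctsc and Ctsk was not tested.

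The aspartic proteases held the most abundant gene of the set in library 2, while Lamp2 and Lamp1 stood above it in library 1. Napsa, which encodes napsin A, an aspartic protease known from lung and kidney, is annotated at chr7:44572380-44586862. It had 3401 TPM in library 2 against 117 TPM in library 1, a mean of 1759 ± 2323 TPM (SD, n = 2 technical libraries). Its place among 43299 genes other than mitochondrial genes and copies was 8 in library 2 and 332 in library 1. Napsa alone made up 39% of the TPM of the whole set in library 2 against 6.7% in library 1. Its log2 ratio was 3.51 ± 0.02 on 73747 counts in library 2 and 4734 in library 1, and 1.18 without the GC trend, still called.

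Ctsd, the main aspartic protease of lysosomes in most cells, had 424 TPM in library 2 against 20.1 TPM in library 1. Its log2 ratio of 3.64 fell to 0.73 without the GC trend and was then not called. The row of Ctsd also counts a transcript that GENCODE M21 gives to another gene, Gm49369. That transcript took 164 of the 783 counts in library 1 and 0 in library 2. The ratios and the call of Ctsd without it were not tested. Ctse, an aspartic protease of endosomes best known from stomach and immune cells, was the lowest gene of the set in library 2, with 1.12 TPM there and 0.63 TPM in library 1. With 35 counts in library 2 and 32 in library 1 its difference missed the threshold (adjusted p = 0.452, exact binomial test; scaled ratio 0.797, 95% interval 0.48 to 1.33).

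The other peptidases and the thioesterase were all above 10 TPM in both libraries. Of the 4, 2 were called higher in library 2 (35.5% of all genes), with 1 higher in library 1 (24.9%). Lgmn, the asparagine-specific peptidase legumain, had 529 TPM in library 2 against 67.8 TPM in library 1. Its log2 ratio of 1.64 became 1.34 without the GC trend, and it was called on both scales. Ctsa, a carboxypeptidase that also protects Neu1 and Glb1 proteins from breakdown, had 182 TPM in library 2 against 13.1 TPM in library 1, and its log2 ratio of 3.31 became 0.54. Tpp1, a tripeptidyl peptidase whose loss causes a neuronal ceroid lipofuscinosis in humans, had 84.0 TPM in library 2 against 45.3 TPM in library 1 and was not called. Ppt1, which removes palmitate from proteins, had 64.1 TPM in library 2 against 55.8 TPM in library 1. After TMM scaling it was called higher in library 1 (log2 ratio -1.17), and stood at -0.16, not called, without the GC trend.

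Of the 10 glycosidases, which take sugars off glycoproteins, glycolipids and glycosaminoglycans, 7 were called higher in library 2 (35.5% of all genes) and 0 in library 1 (24.9%), and without the GC trend 2 of 9 were higher in library 2 (12.8% of all genes). Neu1, the lysosomal sialidase, had 192 TPM in library 2, the most of this group there, against 6.39 TPM in library 1, where Manba was higher. Its log2 ratio of 3.26 turned to -0.21 without the GC trend. Glb1, the acid beta-galactosidase, had 53.0 TPM in library 2 against 6.37 TPM in library 1, and Hexa, the alpha subunit of beta-hexosaminidase, had 41.5 TPM in library 2 against 4.88 TPM in library 1. Both were called higher in library 2, and without the GC trend Glb1 stood at 0.23 and Hexa at -0.68, not called.

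Gaa, the acid alpha-glucosidase that degrades glycogen, differed most of all 47 genes. It is annotated at chr11:119267887-119285454 and had 41.4 TPM from 2180 counts in library 2 and 0.06 TPM from 5 counts in library 1. The scaled ratio was 318 (95% exact interval 136 to 980), a log2 ratio of 8.18 ± 0.62, and the log2 ratio without the GC trend was 3.75. Its leading transcript had a GC content of 58.9%. Naglu, an enzyme of heparan sulfate breakdown, showed the same order with 18.8 TPM from 734 counts in library 2 and 0.08 TPM from 6 counts in library 1. Its scaled ratio was 89.2 (95% exact interval 40.8 to 244), and its log2 ratio of 6.36 became 1.54 without the GC trend. Gaa and Naglu were the only glycosidases called after that step.

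Man2b1, the lysosomal alpha-mannosidase, had 31.3 TPM in library 2 against 1.61 TPM in library 1 (log2 ratio 2.92), and Manba, the beta-mannosidase, had 35.8 TPM in library 2 against 15.4 TPM in library 1. For Manba the difference in scaled counts missed the threshold (adjusted p = 0.362, exact binomial test; ratio 0.967, 95% interval 0.904 to 1.03). Gusb, the beta-glucuronidase, had 14.7 TPM in library 2 against 3.0 TPM in library 1 and a log2 ratio of 0.96, just under the limit. Idua, which removes iduronic acid from glycosaminoglycans, had 4.92 TPM in library 2 against 1.28 TPM in library 1. Gla, the alpha-galactosidase deficient in Fabry disease, was the lowest glycosidase in library 2 with 3.32 TPM, against 1.77 TPM in library 1. Idua was called higher in library 2 (log2 ratio 1.12, and -0.49 without the GC trend), and Gla was not called.

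The 5 sulfatases, which take sulfate off glycosaminoglycans and lipids, had a median level of 14.2 TPM in library 2 against 0.88 TPM in library 1, below the medians of the whole set. Arsb, which acts on dermatan and chondroitin sulfate, had 58.3 TPM in library 2 against 21.5 TPM in library 1, and its scaled counts missed the threshold (adjusted p = 0.0559, exact binomial test; ratio 1.05, 95% interval 1.00 to 1.11). Ids, the iduronate sulfatase, had 27.6 TPM in library 2 against 30.5 TPM in library 1 and was called higher in library 1 (log2 ratio -1.55), with -0.01 and no call once the GC trend was removed. Galns, which acts on keratan sulfate, had 14.2 TPM in library 2 against 0.88 TPM in library 1. Arsa, which takes sulfate off sulfatide, had 8.99 TPM in library 2 against 0.72 TPM in library 1, and Sgsh, which acts on heparan sulfate, had 5.74 TPM in library 2 against 0.37 TPM in library 1. These last 3 were called higher in library 2 (35.5% of all genes). Without the GC trend Galns stood at -0.08 and Sgsh at -0.50, not called, and Arsa at -1.38, called higher in library 1. The GC content used for Arsa, 57.2%, was that of Arsa-201, a transcript with a retained intron. Its coding transcript Arsa-202 had 56.5% GC. The value of Arsa without the trend depends on this choice, and Arsa-202 was not tested.

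Among 8 genes of sphingolipid and lipid breakdown, 3 were called higher in library 2 (35.5% of all genes), with 1 higher in library 1 (24.9%). Their median log2 ratio was 0.20, and without the GC trend only Npc2 was called, higher in library 2 (12.8% of all genes). Psap, the precursor of the saposins that present lipids to their hydrolases, had 710 TPM in library 2 against 36.2 TPM in library 1. Its log2 ratio was 2.98 ± 0.03 and 0.79 without the GC trend. Smpd1, the acid sphingomyelinase, had 65.9 TPM in library 2 against 2.44 TPM in library 1, and its log2 ratio of 3.39 became 0.60. Npc2, a soluble carrier of cholesterol, had 42.0 TPM in library 2 against 3.93 TPM in library 1. Its log2 ratio of 2.06 became 1.43 without the GC trend, and it was called higher in library 2 on both scales. Npc1, the membrane protein that receives cholesterol from Npc2 protein, had 5.26 TPM in library 2 against 1.67 TPM in library 1 and was not called (adjusted p = 0.127, exact binomial test; ratio 1.14, 95% interval 0.972 to 1.34).

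Asah1, the acid ceramidase, was the gene with the lowest log2 ratio of the set, -1.63 ± 0.04. It had 46.7 TPM from 1938 counts in library 2 and 99.5 TPM from 4382 counts in library 1, and its value without the GC trend was -0.38, not called. Lipa, the acid lipase for cholesteryl esters and triglycerides, had 126 TPM in library 2 against 70.5 TPM in library 1. Gm2a, which presents ganglioside GM2 to beta-hexosaminidase, had 78.8 TPM in library 2 against 26.3 TPM in library 1. Galc, which degrades galactosylceramide, had 39.8 TPM in library 2 against 23.6 TPM in library 1. These 3 stayed under the 2-fold limit, with log2 ratios of -0.52 for Lipa, 0.22 for Gm2a and -0.61 for Galc.

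Of the 6 other membrane proteins, the structural pair Lamp1 and Lamp2 stood far above the rest. Lamp1 had 679 TPM in library 2 against 242 TPM in library 1, and its log2 ratio was 0.13 (-0.60 without the GC trend, not called on either scale). Lamp2, at chrX:38401357-38456454, had 490 TPM in library 2 against 506 TPM in library 1, a mean of 498 ± 10.6 TPM (SD, n = 2 technical libraries). Lamp2 had 17955 counts in library 2 and 39298 in library 1 before scaling. After TMM scaling it was called higher in library 1 with a log2 ratio of -1.59, and it stood at -0.20 without the GC trend. Lamp2 held place 184 in library 2 and place 40 in library 1 among genes other than mitochondrial genes and copies.

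Mcoln1, the calcium-conducting channel TRPML1, had 39.1 TPM in library 2 against 1.5 TPM in library 1 and was called higher in library 2 (log2 ratio 3.28, and 0.34 without the GC trend). Cln3, a membrane protein whose loss causes a juvenile neuronal ceroid lipofuscinosis in humans, had 23.6 TPM from 505 counts in library 2 and 0.42 TPM from 14 counts in library 1. Its scaled ratio was 26.3 (95% exact interval 15.5 to 48.5), and its log2 ratio of 4.67 became 1.86 without the GC trend, and it was called on both scales. Scarb2, the receptor that carries beta-glucocerebrosidase to the lysosome, had 19.2 TPM in library 2 against 8.98 TPM in library 1. Ctns, the cystine exporter whose loss harms the proximal tubule in human cystinosis, had 17.6 TPM in library 2 against 5.19 TPM in library 1. Neither was called, with log2 ratios of -0.26 for Scarb2 and 0.43 for Ctns.

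Both transcription factors stood below the median of the set in each library. Both were called higher in library 2, though neither was called without the GC trend. Tfeb had 13.8 TPM from 404 counts in library 2 and 0.05 TPM from 2 counts in library 1, a scaled ratio of 147 (95% exact interval 40.5 to 1220). Its leading transcript had the highest GC content of the set, 63.2%, and its log2 ratio of 6.88 became 0.68 with the trend removed (adjusted p = 0.545, exact binomial test). Tfe3 had 11.7 TPM in library 2 against 1.22 TPM in library 1, and its log2 ratio of 2.02 became -0.89. At 2 counts in library 1 the level of Tfeb there was known only within the width of that interval.

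The libraries also differed in which transcript a gene was assigned to. In 34 of the 47 genes the same transcript led in both libraries, and 17 of all 47 had a single listed transcript. In the other 13 the leading transcript differed, and for 4 of these the leader in library 1 was not a protein-coding one in GENCODE M21. Psap-202 made up 93.0% of Psap in library 2 and 0% in library 1, where Psap-203 took 97.1%, against 2.09% in library 2. Lipa-201 held 89.6% of Lipa in library 2 and 0.04% in library 1, where Lipa-202 held 99.96%, against 10.4% in library 2. Such near-complete exchanges between transcripts of almost the same length were seen in 1 tissue sample.

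Lamp2 is known to be spliced to alternative last exons that give its protein different membrane spans and tails. Lamp2-201, with its last exon at chrX:38405062-38405571, made up 63.3% of the TPM of the gene in library 2 and 47.3% in library 1. Lamp2-202, with its last exon at chrX:38419507-38421851, made up 34.6% in library 2 and 50.8% in library 1. Both forms were thus common in both libraries, while their order differed. The GC content of Lamp2-201 was 42.5% and that of Lamp2-202 was 38.7%.

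For some genes the level of protein-coding transcripts was well below the level of the gene. Asah1-201, the full coding transcript, took 96.8% of Asah1 in library 2 and 20.2% in library 1. It had 45.25 TPM in library 2 against 20.12 TPM in library 1, the reverse of the order of Asah1 as a whole. In library 1 a transcript marked for nonsense-mediated decay (Asah1-202, 47.5%, against 3.16% in library 2) and a retained-intron transcript (Asah1-203, 32.2%, against 0% in library 2) took the remainder. In Ctsh, coding transcripts took 53.4% in library 2 and 93.7% in library 1, and in Ctsa they took 85.3% in library 2 and 17.2% in library 1. Coding transcripts took less than 67% in 3 genes in library 2 and in 6 genes in library 1. The row of Ctsd included a transcript that GENCODE M21 gives to Gm49369, which took 41.3% of Ctsd in library 1 and 0% in library 2. Shares of transcripts are model estimates, and no error of them was used here.

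**Figure D5:**
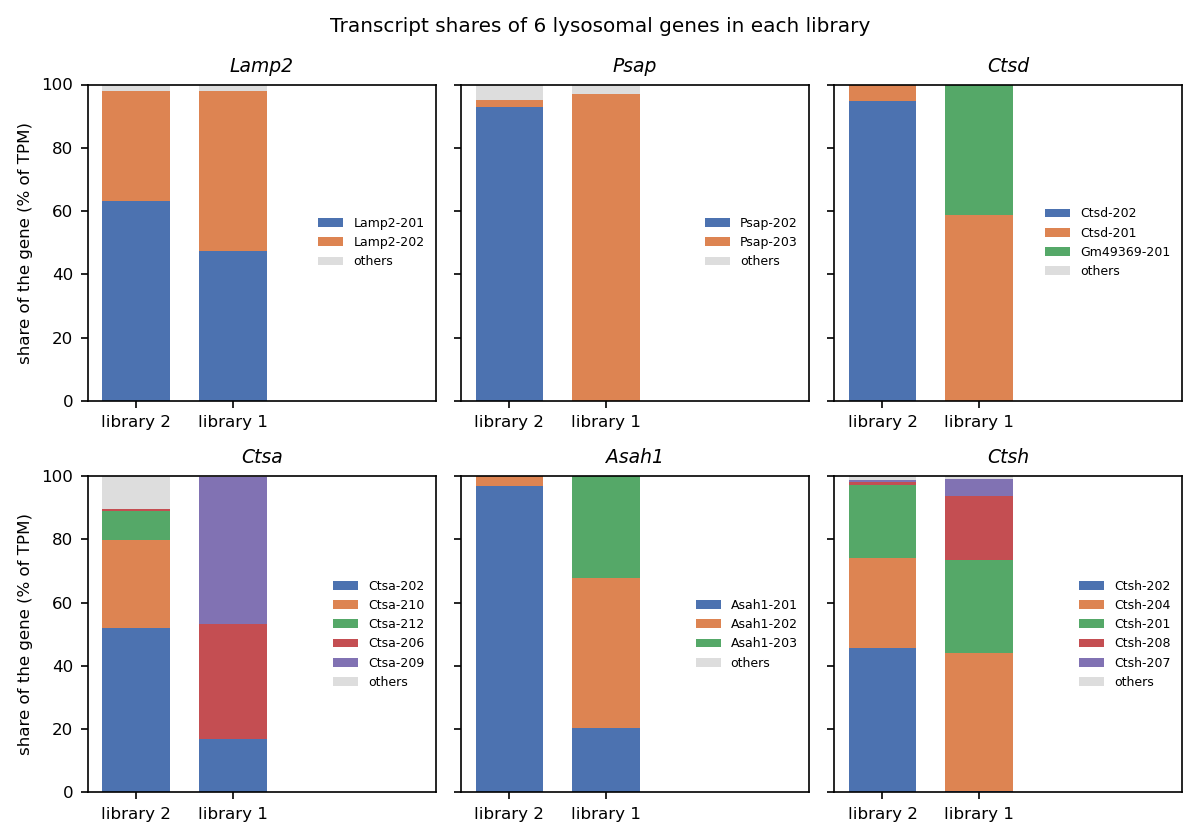
Share of each transcript in the TPM of its gene for 6 lysosomal genes, with library 2 on the left and library 1 on the right in each panel. Colours mark transcripts named in the legend and grey the rest. Psap, Ctsd and Asah1 show different leading transcripts in the libraries, and Lamp2 shows both of its forms in each.

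Reads of the lysosomal genes were rarely shared with other gene rows. At the 2 decimals the tables give, expected counts were whole numbers in both libraries for 46 of the 47 genes, the exception being Glb1. No leading transcript had a stretch of at least 50% of its length at 95% identity with another gene that had counts. The transcript that GENCODE M21 gives to Gm49369 is counted in the row of Ctsd and was not among the transcripts searched. For Ctsd these checks therefore do not cover it.

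Lysosomal genes outside the set were measured beside it. Of 36 other lysosomal genes, 15 were called higher in library 2 (35.5% of all genes), with 5 higher in library 1 (24.9% of all genes), and their median log2 ratio was 0.61. Without the GC trend 8 of 35 were higher in library 2 (12.8% of all genes) and 1 in library 1 (10.6%). Cd63, a tetraspanin of late endosomes, had 1096 TPM in library 2 against 422 TPM in library 1. Laptm4a, a lysosomal membrane protein, had 236 TPM in library 2 against 207 TPM in library 1. Of 9 genes that tag or sort lysosomal enzymes, 5 were called higher in library 2 (35.5% of all genes) and 0 in library 1 (24.9%), and without the GC trend 1 was called, higher in library 2 (12.8% of all genes). M6pr, a mannose 6-phosphate receptor, led these with 113 TPM in library 2 against 57.0 TPM in library 1, ahead of Gnptg and Gga2.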

How the data were processed

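RNA was extracted from kidney tissue with a lipid-tissue column kit and polyadenylated RNA was sequenced in 2 technical libraries, per the labels. Gene and transcript tables on mm10 and GENCODE M4 served as input, as a text file beside them states. No aligner or quantifier is named in the sources used here. Per the file headers, the deposited expected counts carry no normalization, and posterior mean counts stand beside them. TPM values were deposited as length-corrected shares of a fixed total, per the file headers. Transcript shares within a gene were deposited as percent values.

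GENCODE M21, on the same assembly, gave symbols and coordinates for 98% of gene rows. Another 26345 rows without an Ensembl identifier were all at 0 and were left out. The authors' totals were 20720537 expected counts in library 2 and 28263730 in library 1. Rounded expected counts were used with TMM factors from edgeR 4.0.16. With 1 library on each side edgeR's quasi-likelihood test could not be fitted, so genes with at least 10 counts were compared by an exact conditional binomial test, two-sided (scipy 1.17.1 in Python 3.11.15), and p-values were adjusted after Benjamini and Hochberg over all of them. Log2 ratios are library 2 over library 1 with a prior count of 0.5. GC content was read from the reference sequence of the top transcript of a gene, among those whose length matched within 10%. A lowess curve with a 20% span gave its trend (statsmodels 0.14.6), which was taken out by scaling library 2 gene by gene. Nuclear copies of mitochondrial genes matched at 95% identity over 80% of the shorter length (blastn 2.17.0). Intervals cover counting error only. The procedure was run on simulated counts with planted ratios, with and without a planted GC trend. These counts held counting error only, so they cannot show how the procedure behaves under any further spread between libraries. Alternatives were DESeq2 size factors, total counts with and without mitochondrial genes, other filters, a prior count of 5, posterior mean values, other TPM thresholds, each library alone, and protein-coding transcripts only, the last chosen after seeing the data.

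The members and the comparison lists were chosen with earlier results of these data known. All 47 members are named, and of each comparison list the 3 genes of highest mean TPM, except that 1 such gene is not reported here. Transcripts and promoter stretches were picked for description after their values were seen.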

Additional observations from a re-analysis of the deposited data

How the results depend on the processing

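DESeq2 size factors, a filter at 100 counts and posterior mean counts changed the call of none of the lysosomal genes they tested (47, 46 and 47). Scaling changed more. On total counts 0 lysosomal genes were called higher in library 1, against 708 of all genes, the median log2 ratio of the set was 2.03, and log2 ratios turned positive for Ctse (0.58), Ctss (0.56), Tpp1 (0.43), Gla (0.45), Galc (0.29), Manba (0.86), Lipa (0.38) and Scarb2 (0.64). On totals without mitochondrial genes and copies the median was 1.36, 26 genes of the set were called higher in library 2 and 4 in library 1 (Ctsb and Gusb gained a call, Ctsc and Ppt1 lost theirs), and Manba turned to 0.19. With no filter 32 were called, Ctsb and Gusb among them, and Manba stood at 0.0012. A prior count of 5 gave a median of 1 and took the call of Ctsk. Removal of the GC trend left 12 lysosomal genes called (9 higher in library 2 and 3 in library 1), 24 genes of the comparison lists, and 2690 of all genes (1473 and 1217), with a median of 0.25 for the set. It turned the log2 ratio of Ctsc (0.096), Ctsf (-1.05), Ctsh (-1.42), Ctso (0.029), Ctss (0.49), Tpp1 (0.19), Gla (0.31), Gusb (-0.016), Hexa (-0.68), Sgsh (-0.50), Idua (-0.49), Arsa (-1.38), Arsb (-0.37), Galc (0.043), Galns (-0.08), Manba (0.26), Neu1 (-0.21), Npc1 (-0.042), Lipa (0.39), Lamp1 (-0.60) and Tfe3 (-0.89). The causes were not tested. A threshold of 10 TPM left 21 genes in both libraries. TPM without mitochondrial genes and copies gave a median of 54.23 TPM over the means of both libraries, against 25.62 TPM as deposited. With single libraries, 38 to 47 genes stood at 1 TPM or more and the median lay between 6.39 and 41.38 TPM. Protein-coding transcripts alone left 37 genes and a median of 24.12 TPM. No paired analysis was possible because both libraries belong to 1 group and carry different replicate numbers. Depth limits Gaa, Naglu and Tfeb most, with 5, 6 and 2 counts in library 1. Both libraries come from 1 mouse, so nothing here measures how these levels vary among animals.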

Other observations

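A list of 17 genes held proteins that govern TFEB at the lysosome surface, the calcineurin subunit Ppp3cb and the related transcription factors Mitf and Tfec. Of these, 6 were called higher in library 2 (35.5% of all genes), with 6 higher in library 1 (24.9%; exact binomial test on TMM-scaled counts; median log2 ratio -0.38), and without the GC trend 4 were higher in library 2 (12.8% of all genes) and 0 in library 1 (10.6%). Lamtor5, a subunit of the Ragulator complex that anchors the Rag GTPases, had 126 TPM in library 2 against 64.2 TPM in library 1. Lamtor2, another subunit, had 117 TPM in library 2 against 1.81 TPM in library 1, and Rragc, a Rag GTPase, had 39.7 TPM in library 2 against 64.7 TPM in library 1. Lamtor2 was called higher in library 2 (log2 ratio 4.92) and Rragc higher in library 1 (log2 ratio -1.10), and without the GC trend Lamtor2 stood at 1.43 and Rragc, not called, at -0.67.

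Inhibitors of cathepsins were also measured, and 2 of the 3 tested were called, both higher in library 2 (35.5% of all genes). Cst3, the secreted inhibitor cystatin C, had 370 TPM in library 2 against 8.20 TPM in library 1. Cstb, the cytosolic inhibitor cystatin B, had 139 TPM in library 2 against 21.5 TPM in library 1, and Serpinb6a, a serpin, had 31.7 TPM in library 2 against 21.7 TPM in library 1. Cst3 and Cstb were called higher in library 2 with log2 ratios of 4.14 and 1.34, and without the GC trend Cstb kept its call at 1.37 while Cst3 stood at 0.56.

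Among the nephron markers, 5 of 10 proximal tubule genes were called higher in library 2 (35.5% of all genes), with 2 higher in library 1 (24.9%). Of 10 genes of other segments, 6 were called higher in library 2, with 2 higher in library 1. Without the GC trend 2 of 8 proximal tubule genes were higher in library 2 (12.8% of all genes) and 1 in library 1 (10.6%), and of the 10 other genes 2 were higher in library 2 and 0 in library 1. The genes of highest mean level were Kap, Miox and Slc27a2 in the proximal tubule and Umod, Slc12a1 and Calb1 in the other segments.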
